A study of Mus musculus with 6 samples.

Results

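The 39 genes described here encode proteins that sense and repair DNA double-strand breaks and interstrand crosslinks, from the kinases ATM and ATR to the recombination, Fanconi and end-joining machinery. They were found by gene symbol in the authors' table of scaled counts, which holds 34685 genes, and all 39 symbols matched 1 gene each. Their counts were read by gene identifier from the count table of 55536 genes. All 39 were among the 15374 genes that passed the filter on low counts. Tumor RNA was sequenced from HCA-1 tumors, which grow from a murine hepatocellular carcinoma (HCC) line implanted under the liver capsule of male C3H/HeNCrNarl mice (C3H in the labels) aged 6 to 8 weeks. The control group was 3 untreated tumors (numbers 5, 6 and 7). The treated group was 3 tumors (numbers 1, 2 and 5) from mice given GOx-DOX-LGP intravenously, a nanogel that carries glucose oxidase (GOx), an enzyme that consumes glucose and releases hydrogen peroxide, together with the topoisomerase II poison doxorubicin (DOX). Per the labels, doses were given on days 18, 19 and 20, whereas the RNA analysis is placed on day 17 after 3 h of circulation, so the time between the last dose and sampling is uncertain. The study's supporting methods describe the same dosing for tumor RNA used in RT-qPCR, with harvest on the day after the last dose, and give no day for sequencing. All tumors derive from 1 cell line, none of these tumors received the empty nanogel, and nothing in the labels says whether each library is a separate animal. The p-values therefore measure the spread between these libraries.

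Doxorubicin traps topoisomerase II on cut DNA, so these break repair pathways are among those a cell may use after it. The peroxide made by GOx can oxidize DNA, and these genes are not a list of the pathways for such damage. Homologous recombination copies an intact sister chromatid and is therefore used mainly in S and G2 phases, and many of its genes are transcribed in proliferating cells. Non-homologous end joining ligates ends directly in any phase of the cycle, and its core genes are transcribed in most cell types. The comparison asks whether the RNA of these genes differed between treated and control tumors. Whether breaks were repaired, or proteins phosphorylated or recruited, was not measured.

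The libraries held between 15529940 and 18401178 counts. Levels are given as CPM (counts scaled to library size) with the trimmed mean of M values (TMM) of edgeR, and the smallest level taken as detectable, 3 counts, was between 0.132 CPM (control 5) and 0.323 CPM (control 7). Such floors cover counting error only. The control tumors did not resemble each other. Alb, the hepatocyte product albumin, was at 353 CPM in control 5, 73804 CPM in control 6 and 128244 CPM in control 7, against 733 to 1893 CPM in the treated tumors. The mean log2 CPM of 19 hepatocyte genes was 4.31 in control 5 but 12.06 and 12.66 in controls 6 and 7, and 5.50 to 6.84 in the treated tumors. Of 7 markers of HCC cells, the fetal liver protein Afp was low in all 6 libraries (2.25 to 13.2 CPM), while the summed level of the 7 was 682 to 1220 CPM in controls and 1198 to 1484 CPM in treated tumors, with a median log2 fold change of 0.33. Control 5 thus lay near the treated tumors in hepatocyte RNA, and whether it was a piece with less liver or a mixed-up sample cannot be told apart here, which bears on every control mean and fold change. Members whose call changed without control 5 are also given without it.

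The control tumors differed from each other in the recombination and Fanconi genes more than the groups differed. In control 7 the RNA of Bard1, Exo1, Fancd2, Fanci and Rad54l was near the detection floor, in control 6 it was intermediate, and in control 5 it was as high as in the treated tumors or close to it. Parp1 and the end-joining genes, apart from Nhej1 and Prkdc, differed by less than 2-fold between any 2 libraries. In the quasi-likelihood test of edgeR, adjusted over 15374 genes by the Benjamini-Hochberg method, 0 of 39 repair genes had an adjusted p under 0.05, as for 0% of all genes tested. At an unadjusted p under 0.05 there was 1 repair gene, Blm, lower in treated tumors, against 17.5% of all genes tested (2.87% higher and 14.6% lower). DESeq2 also called 0 of the 39, against 10.6% of the 16471 genes it gave an adjusted p, and the exact test of edgeR 0, against 7.14%.

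The libraries of the groups did not overlap for 3 of 39 members, against 17.2% of all genes tested (8.87% higher and 8.31% lower), with Rnf168 and Xrcc4 higher and Blm lower in treated tumors. Scaling to 12 housekeeping genes turned the fold changes of Rnf168 and Xrcc4 negative. With TMM, the log2 fold changes of those 12 genes themselves ran from -1.70 to 0.87 (median 0.25), so they were not a flat reference. The fitted log2 fold change, treated minus control, was above 0 for 27 of 39 members, against 51.1% of all genes. Its median was 0.27 over the members and 0.02 over all genes, and it changed sign to -0.03 with the housekeeping scaling, where the median of all genes was -0.25. Each of these counts includes control 5. Without it, 17 of 39 members were called, 15 higher and 2 lower, at a background of 47.7% of all genes (22.2% higher and 25.5% lower). The median of the members was then 0.45, and 28 of them had groups without overlap, against 72% of all genes.

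**Figure D1:**
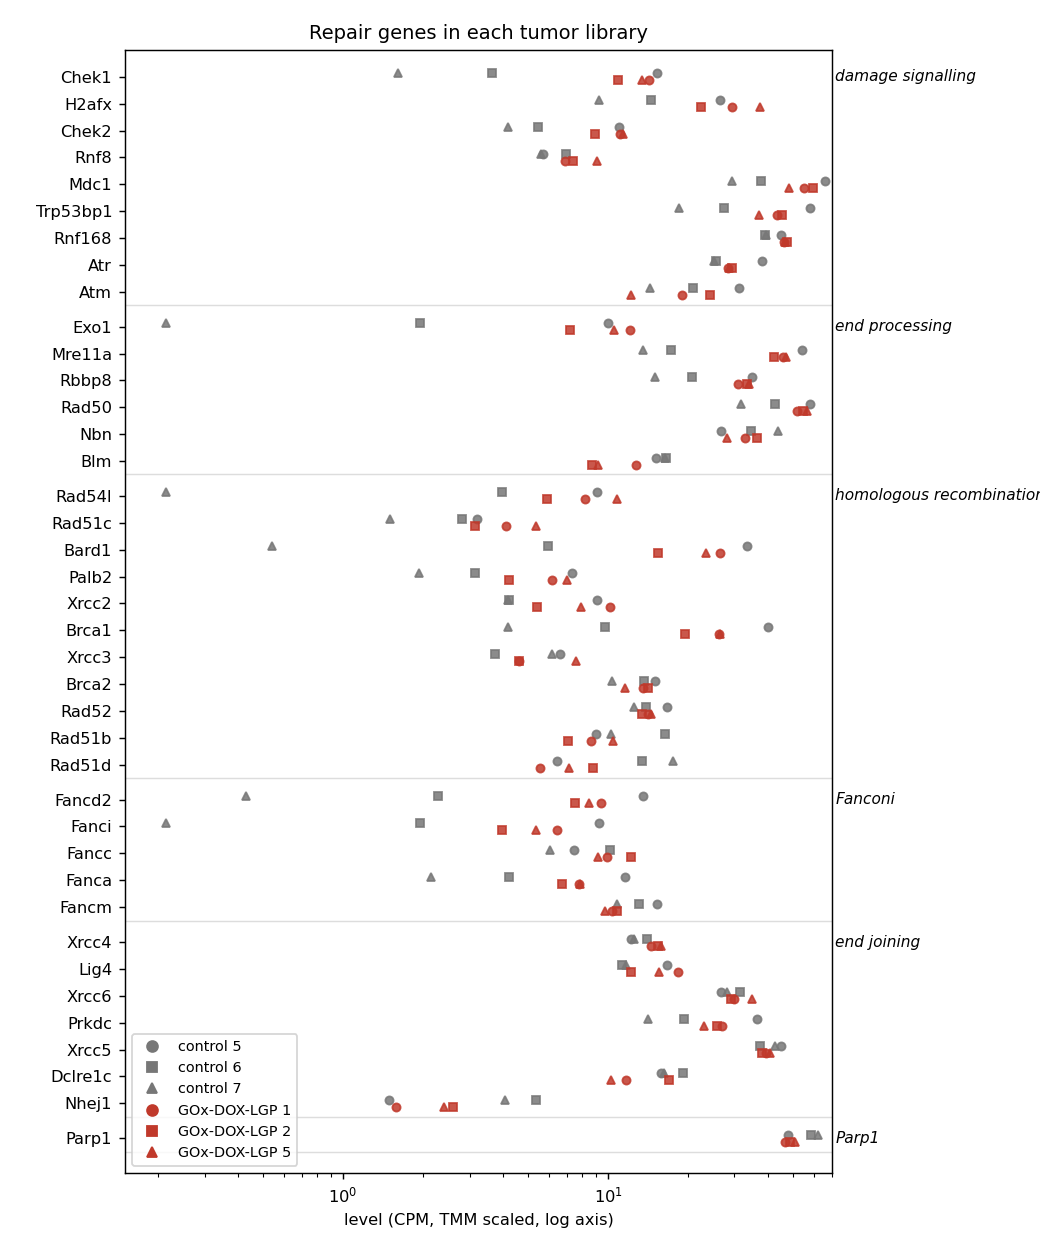
Level of each of the 39 repair genes (TMM-scaled CPM, log axis) in 3 control libraries (grey) and 3 GOx-DOX-LGP libraries (red), with 1 symbol per library and genes grouped by role. The 3 control symbols of Bard1 lie between 0.538 and 33.3 CPM, whereas those of Xrcc5 lie between 37.3 and 45.0 CPM.

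The sequence upstream of these genes is shown for 4 members, because E2F factors, which bind such letters, are known regulators of genes used in S phase, and because genes with and without large spread among controls both held a match. Promoter windows from RefSeq (GRCm38.p6, 250 bases before to 50 bases after the start) were found for 30 of 39 members. The letters TTTCCCGC, TTTCGCGC, TTTGCCGC or TTTGGCGC were searched on both strands, and occurred in 6 of these 30 members (20.0%) and in 704 of 27025 genes with a window (2.6%). The search was narrowed to these 4 forms after a first search with more forms had been seen. The 6 members were Chek2, Mdc1, Bard1, Brca2, Rad51c and Xrcc6. By role, a match occurred in 2 of 8 signalling, 3 of 9 recombination and 1 of 6 end-joining genes with a window. It occurred in 0 of 4 Fanconi genes, in 0 of 2 end-processing genes and not in Parp1. Of the genes whose controls spread more than 4-fold, Bard1 alone had a match, though members without a window were not searched. The cell cycle letters TTTGAA, searched in the same way, occurred in 3 of 30 members (10.0%) and in 20.2% of all genes with a window. In these stretches of 100 bases, written 5′ to 3′ on the strand of the gene, capitals mark the E2F letters, which are on the reverse strand where they read GCGGGAAA.
Bard1, chr1:71103123-71103222, minus strand: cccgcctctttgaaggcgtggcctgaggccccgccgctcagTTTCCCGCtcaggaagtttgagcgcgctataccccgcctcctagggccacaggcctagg
Chek2, chr5:110839785-110839884, plus strand: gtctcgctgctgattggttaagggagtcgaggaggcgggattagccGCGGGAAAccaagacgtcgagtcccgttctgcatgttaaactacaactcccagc
Brca2, chr5:150522407-150522506, plus strand: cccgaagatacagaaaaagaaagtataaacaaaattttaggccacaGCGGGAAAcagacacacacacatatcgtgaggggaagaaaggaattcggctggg
Xrcc6, chr15:82016269-82016368, plus strand: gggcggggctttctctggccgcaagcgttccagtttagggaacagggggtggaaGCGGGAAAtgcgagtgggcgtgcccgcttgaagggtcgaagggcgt
Among the 3 control tumors, the highest level over the lowest was 62.0 for Bard1 and 2.62 for Chek2, but 1.46 for Brca2 and 1.18 for Xrcc6. A match is a description of the letters and not a bound site.

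Damage signalling acts first, when kinases and scaffold proteins gather at a break. Of 9 genes, 0 were called with all 6 libraries, as for 0% of all genes, and the median log2 fold change was 0.28. There were 5 called higher and 0 lower without control 5 (edgeR), against 22.2% and 25.5% of all genes. Chek1, the kinase that ATR activates when replication stalls, was at 15.3, 3.65 and 1.61 CPM in controls 5, 6 and 7, and at 14.3, 10.9 and 13.5 CPM in treated tumors 1, 2 and 5, the order kept for all genes. Controls 6 and 7 were below every treated tumor, but control 5 was above them all. Treated minus control, this was a log2 fold change of 0.90 (standard error, SE, 0.78, 95% interval -0.999 to 2.79, adjusted p = 0.534 with edgeR), and 2.30 (SE 0.39, adjusted p = 0.00308) without control 5. Chek2, the kinase downstream of ATM, was at 11.0, 5.43 and 4.20 CPM in the controls and at 11.1, 8.92 and 11.4 CPM in the treated tumors. Its groups overlapped through control 5, with a log2 fold change of 0.60 (SE 0.41, adjusted p = 0.456 with edgeR) that reached 1.15 (adjusted p = 0.0139) without that library.

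H2afx encodes the histone variant H2AX, whose phosphorylated form marks breaks. Its levels were 26.5, 14.5 and 9.25 CPM in the controls and 29.5, 22.5 and 37.4 CPM in the treated tumors. Treated tumor 2 lay below control 5, so the groups overlapped. The difference was 0.82 on the log2 scale (SE 0.43, 95% interval -0.22 to 1.87), with an unadjusted p of 0.102 from the edgeR test over all genes, the lowest among the signalling genes, and an adjusted p of 0.357. Without control 5 it was 1.35 (adjusted p = 0.0104, edgeR). Per kilobase of annotated exon, H2afx had the highest level of the 39 genes in treated tumors, 21.5 CPM per kb against 12.1 in controls. Of its stretches of 50 bases, 6.14% also occur in other histone genes, which leaves part of its counts uncertain.

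Rnf168, the ubiquitin ligase that marks chromatin around breaks for 53BP1, was at 45.1, 39.2 and 39.4 CPM in the controls and at 46.0, 47.5 and 46.4 CPM in the treated tumors. Every treated tumor was above every control, though the gap to control 5 was under 1 CPM. Its log2 fold change came to 0.18 (SE 0.17, adjusted p = 0.565 with edgeR), and 0.28 (adjusted p = 0.184) without control 5. Atr, the kinase for stalled replication forks, was at 38.0, 25.6 and 25.1 CPM in controls and 28.4, 29.3 and 28.6 CPM in treated tumors. Its treated values lay inside the range of the controls, and the log2 fold change of -0.04 had a 95% interval of -0.60 to 0.52. Atm, the kinase that responds to double-strand breaks, spread from 14.4 to 31.1 CPM in controls and from 12.2 to 24.2 CPM in treated tumors. With the groups overlapping, the log2 fold change was -0.26 (SE 0.38).

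Mdc1 and Trp53bp1 encode the scaffold proteins that read marked chromatin at breaks. Mdc1 was at 66.1, 37.7 and 29.3 CPM in controls and 54.9, 59.3 and 48.1 CPM in treated tumors, a log2 fold change of 0.28 (SE 0.33). For Trp53bp1 the values were 58.0, 27.4 and 18.5 CPM in controls and 43.4, 45.3 and 37.1 CPM in treated tumors, a log2 fold change of 0.27 (SE 0.43). In both genes control 5 was the highest library and controls 6 and 7 the lowest. Without control 5 both were called, at 0.72 (adjusted p = 0.0218) for Mdc1 and 0.90 (adjusted p = 0.0164) for Trp53bp1 with edgeR. The fold change of Mdc1 turned negative with the housekeeping scaling or the hepatocyte covariate, and that of Trp53bp1 in these settings and without control 7. Rnf8, the ligase that acts before RNF168, was low in every library, at 5.60 to 6.95 CPM in controls and 6.87 to 9.05 CPM in treated tumors. The lowest treated tumor lay just under the highest control, with a log2 fold change of 0.35 (SE 0.26). Part of its counts is uncertain, since 13.2% of its exonic bases overlap another gene on the same strand.

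Among the 6 end-processing genes, Blm alone had an unadjusted p under 0.05 (edgeR). A further 4 were called higher without control 5, against 22.2% of all genes. Blm (ENSMUSG00000030528, chromosome 7, 80454733 to 80535119 on GRCm38) encodes the helicase mutated in Bloom syndrome, which helps resect ends and dissolve joined chromosomes. Blm was at 15.2, 16.5 and 16.4 CPM in controls and at 12.7, 8.72 and 9.16 CPM in the treated tumors, means of 16.0 ± 0.737 CPM (SD, n = 3) and 10.2 ± 2.18 CPM (SD, n = 3). Every treated tumor was below every control, and the 3 controls were within a factor of 1.09, the smallest spread of any member in that group. Treated tumors were lower by a fitted log2 fold change of -0.65 (SE 0.24, 95% interval -1.24 to -0.06), with an unadjusted p of 0.0351 from the edgeR test over all genes and an adjusted p of 0.258. Blm was not called by edgeR or DESeq2 (adjusted p = 0.173), while limma voom with sample quality weights, which called 24 of 39 members and 60.2% of all genes, gave an adjusted p of 0.0449. The size was the same without control 5 (-0.66, adjusted p = 0.0629 with edgeR) and smaller when libraries were scaled to their totals (-0.11, SE 0.38).

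Exo1, the nuclease that lengthens the resected tract, was at 9.96, 1.95 and 0.215 CPM in controls and at 12.1, 7.20 and 10.6 CPM in treated tumors. The value in control 7 rested on 2 counts, below the floor, and the ratio of control 5 to control 7 was 46.3 (95% exact interval 12.7 to 384, counting error only). This gave the highest log2 fold change of the 39 genes, 1.27, but its SE was 1.07 and its 95% interval -1.33 to 3.86 (adjusted p = 0.523, edgeR). Without control 5 it was 3.16 (SE 0.69, adjusted p = 0.00889).

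Mre11a and Rad50 encode the nuclease and the tether of the MRN complex that first binds ends. Mre11a was at 53.9, 17.2 and 13.6 CPM in controls and 45.9, 42.4 and 46.8 CPM in treated tumors. The treated tumors were within a factor of 1.10 of each other, and the controls within a factor of 3.98. For Mre11a the fitted difference was 0.67 (SE 0.54, adjusted p = 0.507) and 1.58 (SE 0.20, adjusted p = 0.000769) without control 5 (edgeR), the lowest adjusted p of any member in that fit. In Rad50 control 5 was again the highest library and controls 6 and 7 the lowest, over a smaller range, with 57.8, 42.7 and 31.7 CPM in controls and 51.8, 54.5 and 56.3 CPM in treated tumors. Its fitted value of 0.30 (SE 0.26) became 0.57 (adjusted p = 0.0445, edgeR) without control 5. Nbn, the third MRN subunit, ran the other way among the controls, with 26.7, 34.8 and 43.9 CPM, and was at 32.8, 36.5 and 28.2 CPM in treated tumors. Its log2 fold change was -0.11 (95% interval -0.71 to 0.49). Rbbp8, also called CtIP, the factor that starts resection, was at 35.1, 20.7 and 15.1 CPM in controls and 30.9, 33.4 and 33.9 CPM in treated tumors, overlapping through control 5. This gave a log2 fold change of 0.47 (SE 0.33, adjusted p = 0.464), and 0.90 (adjusted p = 0.0116, edgeR) without control 5.

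**Figure D2:**
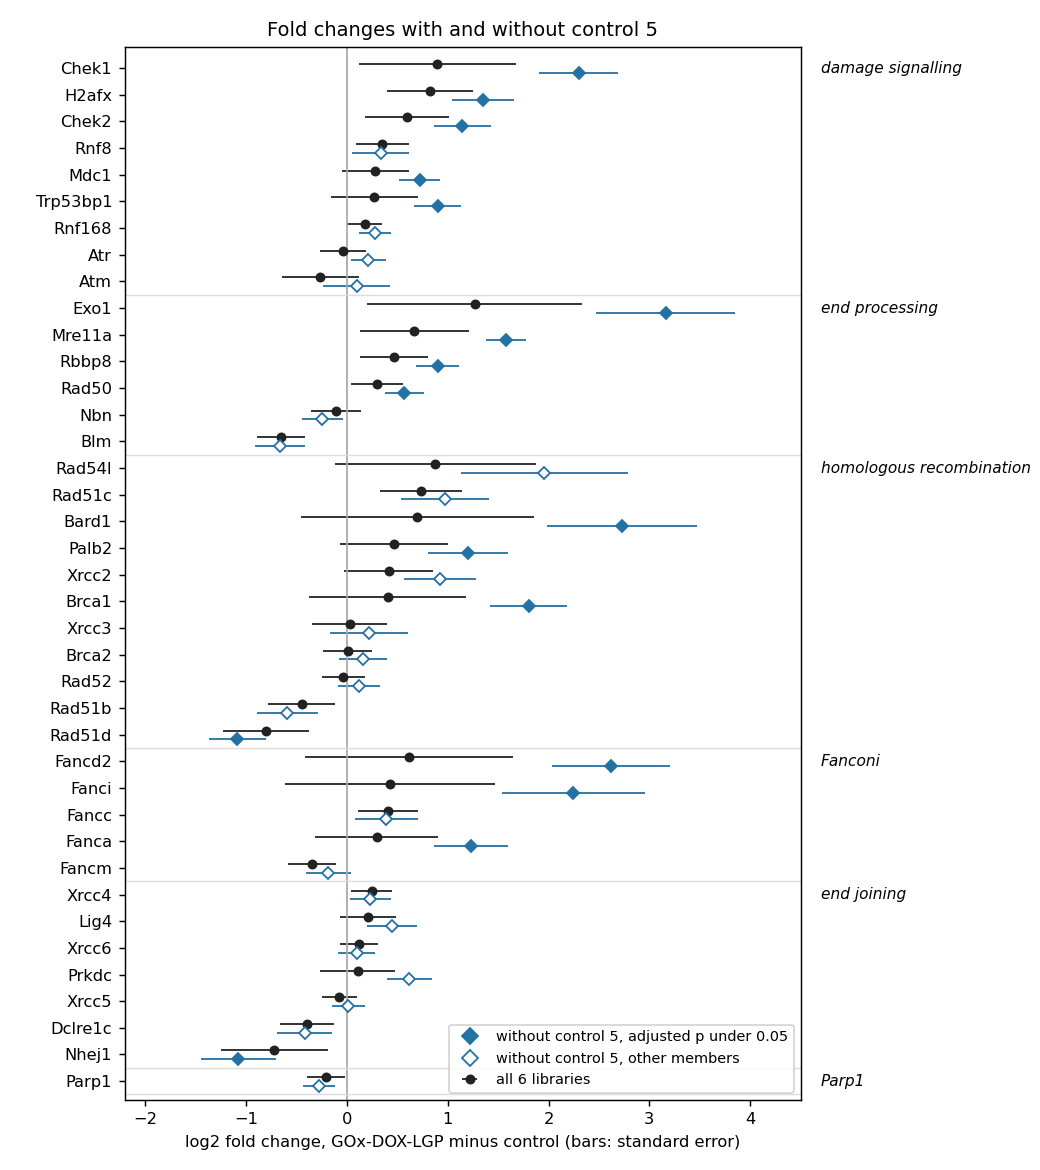
Fitted log2 fold change, GOx-DOX-LGP minus control, of each member with its SE, from all 6 libraries (black circles) and without control 5 (blue diamonds, filled where the adjusted p of edgeR is under 0.05). For Exo1 the estimate is 1.27 with all libraries and 3.16 without control 5, whereas for Blm both are near -0.65.

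All 11 genes of homologous recombination spread more among the controls than among the treated tumors, as did 79.0% of all genes tested. Their highest-to-lowest control ratio ran from 1.34 (Rad52) to 62.0 (Bard1). Brca1 and Bard1 encode the paired ubiquitin ligases that commit a break to recombination, and were singled out after their values were seen. Bard1 was at 33.3, 5.94 and 0.538 CPM in controls, the widest spread of the 39 genes (62.0-fold), and at 26.4, 15.4 and 23.4 CPM in treated tumors. Brca1 was at 40.1, 9.75 and 4.20 CPM in controls and 26.1, 19.4 and 26.5 CPM in treated tumors. In both genes control 5 exceeded every treated tumor while controls 6 and 7 were below them all. Fitted changes were 0.70 (SE 1.16) for Bard1 and 0.41 (SE 0.78) for Brca1, with adjusted p-values of 0.730 and 0.766 (edgeR). Without control 5 they were 2.73 (adjusted p = 0.0209) and 1.80 (adjusted p = 0.00749), but that of Brca1 was -0.06 without control 7.

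Rad54l, a motor protein of strand exchange, had the largest fold change of the recombination group. It was at 9.08, 3.99 and 0.215 CPM in controls (2 counts in control 7) and at 8.21, 5.88 and 10.8 CPM in treated tumors. Its fitted value of 0.88 had a SE of 0.99 and an adjusted p of 0.616, and without control 5 it was 1.96 (adjusted p = 0.0889, edgeR). Of the exonic bases of Rad54l, 15.4% overlap Lrrc41 on the opposite strand.

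Rad51b, Rad51c and Rad51d did not follow 1 common order of libraries. Rad51d, a subunit of a complex that promotes strand exchange, was at 6.41, 13.5 and 17.5 CPM in controls and 5.54, 8.77 and 7.13 CPM in treated tumors. Here controls 6 and 7 were the highest libraries and control 5 was within the treated range. On the log2 scale the difference was -0.80 (SE 0.43, unadjusted p = 0.109 from the edgeR test over all genes, adjusted p = 0.363), and without control 5 Rad51d was called lower, at -1.08 (adjusted p = 0.0169). Rad51c, which acts in the same process, was at 3.20, 2.80 and 1.51 CPM in controls and 4.10, 3.14 and 5.36 CPM in treated tumors. Treated tumor 2 lay just below control 5, and the log2 fold change was 0.73 (SE 0.41, adjusted p = 0.374 with edgeR). Rad51b, also of that complex, was highest in control 6 (16.5 CPM), with 8.99 and 10.2 CPM in controls 5 and 7 and 7.05 to 10.5 CPM in treated tumors (log2 fold change -0.45, SE 0.33).

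Brca2 and its partner Palb2 act together at resected ends. Brca2 was at 15.1, 13.7 and 10.3 CPM in controls and at 13.5, 14.2 and 11.6 CPM in treated tumors. The treated values lay within the control range, and the log2 fold change was 0.01 (95% interval -0.58 to 0.60), the smallest among the 39 genes. Palb2 was at 7.28, 3.14 and 1.94 CPM in controls and 6.13, 4.21 and 6.97 CPM in treated tumors, with a log2 fold change of 0.47 (SE 0.54) that was 1.20 (adjusted p = 0.0405, edgeR) without control 5. Xrcc2, a further strand-exchange gene, was at 4.20 to 9.08 CPM in controls and 5.39 to 10.2 CPM in treated tumors (log2 fold change 0.41, SE 0.44), and the related Xrcc3 at 3.73 to 6.58 CPM and 4.60 to 7.60 CPM (0.03, SE 0.37). Rad52, which anneals single strands, was at 12.5 to 16.7 CPM in controls and 13.4 to 14.6 CPM in treated tumors, a log2 fold change of -0.03 (95% interval -0.56 to 0.49).

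Proteins of the Fanconi pathway unhook crosslinks between DNA strands, and their genes spread most among the controls. Over the 5 genes, the median ratio of the highest to the lowest control was 5.38, against 1.26 in the treated tumors. With all 6 libraries 0 of 5 were called, as for 0% of all genes. The lowest adjusted p was 0.450 and the lowest unadjusted p 0.193 (the edgeR test over all genes). DESeq2 also called 0, against 10.6% of the genes it gave an adjusted p. There were 3 called higher without control 5 (edgeR), against 22.2% of all genes. Fancd2, which is ubiquitinated at crosslinks together with FANCI, was at 13.6, 2.29 and 0.430 CPM in controls and at 9.44, 7.50 and 8.48 CPM in treated tumors. Fanci, its partner, was at 9.26, 1.95 and 0.215 CPM in controls and 6.43, 3.97 and 5.36 CPM in treated tumors. Both partners were highest in control 5 and lowest in control 7, with every treated tumor between controls 5 and 6. The log2 fold change of Fancd2 was 0.62 (SE 1.03, 95% interval -1.89 to 3.12) with all libraries and 2.62 (adjusted p = 0.00967, edgeR) without control 5. For Fanci, 0.43 (SE 1.04) became 2.24 (adjusted p = 0.0354), but it was -0.11 without control 7. Of the exonic bases of Fanci, 16.0% overlap Polg on the opposite strand.

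Fanca, a scaffold of the core complex, was at 11.6, 4.24 and 2.15 CPM in controls and 7.76, 6.71 and 7.80 CPM in treated tumors, a log2 fold change of 0.29 (SE 0.61), which was called higher at 1.23 (adjusted p = 0.0291, edgeR) without control 5 and was -0.10 without control 7. Fancc, another core subunit, did not follow that order. It was at 7.41, 10.2 and 6.03 CPM in controls and 9.94, 12.2 and 9.16 CPM in treated tumors, with control 6 inside the treated range and a log2 fold change of 0.41 (SE 0.30, adjusted p = 0.470, edgeR). Fancm, the translocase that brings the core complex to DNA, was at 15.3, 13.1 and 10.8 CPM in controls and 10.3, 10.8 and 9.73 CPM in treated tumors, overlapping through control 7. It had the lowest unadjusted p of the 5 genes (0.193 from the edgeR test over all genes), with a log2 fold change of -0.34 (SE 0.24).

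End-joining genes were the flattest of the repair groups. The median ratio of the highest to the lowest control was 1.21 over 7 genes, and it was below 1.5 for 5 of them. With all 6 libraries 0 of 7 were called, as for 0% of all genes. The lowest unadjusted p was 0.191 (the edgeR test over all genes). Without control 5, 0 were called higher and 1 lower (edgeR), against 22.2% and 25.5% of all genes, and voom called 4, against 60.2%. Xrcc5 and Xrcc6 encode Ku80 and Ku70, the ring that first binds an end. Xrcc5 was at 45.0, 37.3 and 42.6 CPM in controls and at 39.6, 38.1 and 40.9 CPM in treated tumors, inside the control range. Its log2 fold change of -0.08 had a 95% interval of -0.50 to 0.35. Xrcc6 was at 26.6 to 31.4 CPM in controls and 29.1 to 34.8 CPM in treated tumors, with a log2 fold change of 0.12 (95% interval -0.33 to 0.57). Per kilobase of exon in treated tumors, Xrcc5 was at 15.5 CPM and Xrcc6 at 6.97 CPM.

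Xrcc4 (chromosome 13, 89774027 to 90089608 on GRCm38), the partner of the ligase encoded by Lig4, was at 12.2, 14.1 and 12.5 CPM in controls and at 14.6, 15.5 and 15.8 CPM in treated tumors. Every treated tumor was above every control, with a gap of under 1 CPM to control 6. This amounted to a log2 fold change of 0.25 (SE 0.20, adjusted p = 0.512) and 0.23 (adjusted p = 0.371) without control 5 (edgeR). Lig4 was at 11.3 to 16.7 CPM in controls and 12.2 to 18.3 CPM in treated tumors, and the groups overlapped (log2 fold change 0.21, SE 0.28). Nhej1, also called XLF, which supports the ligase, was at 1.49, 5.34 and 4.09 CPM in controls and 1.58, 2.60 and 2.39 CPM in treated tumors. Control 5 was the lowest library of Nhej1 and controls 6 and 7 the highest, so the groups overlapped. Its log2 fold change was the largest of the group at -0.72 (SE 0.53, adjusted p = 0.476), and without control 5 it was called lower, at -1.08 (adjusted p = 0.0483, edgeR). With the hepatocyte covariate the estimate was 0.13.

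Dclre1c, the nuclease Artemis that opens hairpin ends, had the lowest unadjusted p of the end-joining genes. It was at 15.8, 19.2 and 16.2 CPM in controls and 11.7, 17.0 and 10.2 CPM in treated tumors, with treated tumor 2 inside the control range. Its fitted difference was -0.40 on the log2 scale (SE 0.27, adjusted p = 0.447, edgeR). Prkdc, the catalytic subunit of DNA-PK, followed the order of the recombination genes within its group, with 36.5, 19.4 and 14.1 CPM in controls and 26.9, 25.8 and 23.1 CPM in treated tumors. Its log2 fold change of 0.11 (SE 0.37) was 0.62 (adjusted p = 0.0530, edgeR) without control 5 and -0.15 without control 7. Parp1, the sensor of strand breaks, was at 47.6, 58.2 and 62.1 CPM in controls and 46.4, 48.6 and 50.9 CPM in treated tumors. Control 5 was within the treated range and controls 6 and 7 above it, with a log2 fold change of -0.20 (SE 0.19, 95% interval -0.66 to 0.26, adjusted p = 0.555, edgeR).

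Spread among the controls was the main pattern of these genes, and most genes tested shared it. The highest control exceeded the lowest by a median of 2.16-fold over the 39 genes and by more than 4-fold for 8 of them (Chek1, Exo1, Brca1, Bard1, Rad54l, Fanca, Fancd2 and Fanci), whereas the treated tumors differed by a median of 1.31-fold and by more than 4-fold for 0. Controls spread more than treated tumors for 34 of 39 members (87.2%), near the 79.0% of all genes tested. The medians and counts of these ratios are not given for all genes. Control 7 was the lowest library for 24 members (61.5%), against 35.6% of all genes, and control 5 the highest for 19 (48.7%), against 19.4%. Controls 6 and 7 were both below every treated tumor for 23 members (59.0%, against 37.2% of all genes) and both above for 4 (10.3%, against 34.7%).

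**Figure D3:**
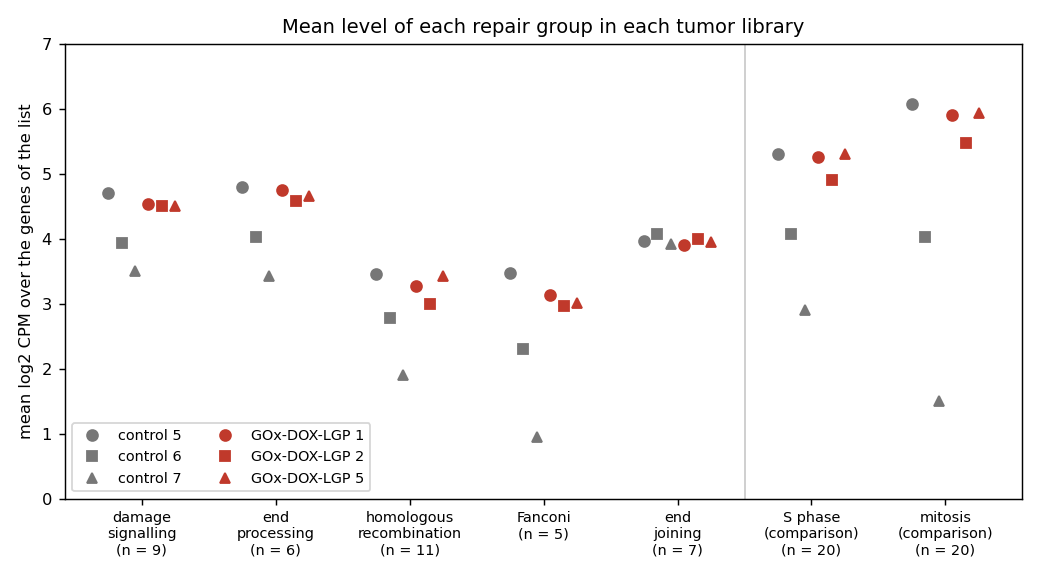
Mean log2 CPM of each repair group and of 2 comparison lists (S phase and mitosis, 20 genes each) in every library, with grey symbols for controls and red symbols for GOx-DOX-LGP tumors. The Fanconi group falls from 3.48 in control 5 to 0.95 in control 7, while the end-joining group stays between 3.91 and 4.08 in all libraries.

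The group means showed the same division. Among the controls, mean log2 CPM of the 5 Fanconi genes was 3.48, 2.30 and 0.95, against 3.13, 2.96 and 3.01 among the treated tumors. The 11 recombination genes had means of 3.46, 2.79 and 1.90 in controls and of 3.28, 2.99 and 3.42 in treated tumors. For the 7 end-joining genes the controls were at 3.97, 4.08 and 3.91 and the treated tumors at 3.91, 3.99 and 3.96. In a comparison within each library, scaling between libraries cancels, apart from the prior count of 2 added before taking logs. That prior weighs most on low counts, such as the 2 counts of Fanci and 4 of Fancd2 in control 7. Within libraries, the Fanconi mean was below the end-joining mean by 0.49, 1.77 and 2.96 on the log2 scale in the controls. In the treated tumors it was below by 0.78, 1.03 and 0.94. Treated tumors thus lay inside the range of the controls on that measure, as they did for the recombination genes (-0.63, -0.997 and -0.53 in treated tumors, -0.51, -1.29 and -2.01 in controls).

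Other lists moved across the libraries together with these genes. Controls 5, 6 and 7 had a mean log2 CPM of 6.07, 4.03 and 1.5 over 20 mitosis genes, against 5.91, 5.48 and 5.93 for the treated tumors. Over 20 S phase genes the controls were at 5.30, 4.07 and 2.90, and the treated tumors at 5.26, 4.90 and 5.30. Mki67, which marks cycling cells, was at 347, 124 and 15.4 CPM in controls and at 238 to 284 CPM in treated tumors. The hepatocyte list went the other way, with summed levels of 845 to 256841 CPM in the controls and 1862 to 4466 CPM in the treated tumors. All 19 of its genes had an unadjusted p under 0.05, lower in treated tumors, with a median log2 fold change of -5.43, and 19 were called by DESeq2, although 0 had an adjusted p under 0.05 with edgeR's quasi-likelihood test. T cell genes (10 genes, summed level 38.4 to 120 CPM in controls and 154 to 237 CPM in treated tumors), macrophage genes (10 genes, 813 to 1675 CPM and 1634 to 4344 CPM) and endothelial genes (6 genes, 140 to 328 CPM and 95.1 to 134 CPM) also differed between libraries. Cd3e ranged from 5.49 to 29.5 CPM, Adgre1 from 27.8 to 106 CPM, Pecam1 from 33.7 to 44.1 CPM and Col1a1 from 223 to 2281 CPM over all libraries. In bulk tumor RNA, fewer cells of a type and less RNA per cell cannot be told apart. With the mean hepatocyte level as a covariate in edgeR, the median log2 fold change of the repair genes was 0.04, and 0 of 39 members had an unadjusted p under 0.05, against 7.01% of all genes. The part of these lists in the repair results was not tested further.

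**Figure D4:**
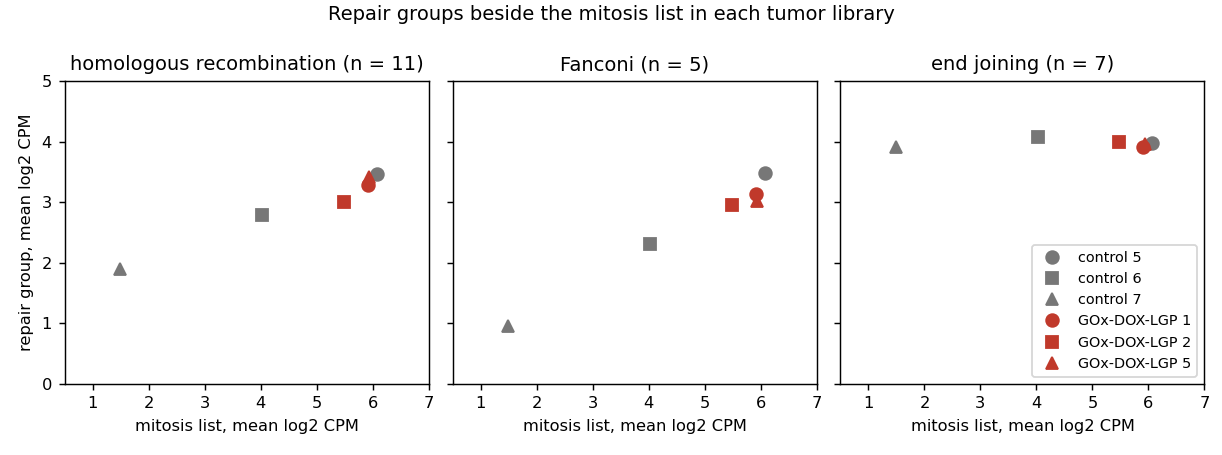
Mean log2 CPM of the recombination (11 genes), Fanconi (5 genes) and end-joining (7 genes) groups on the vertical axes against the mean of 20 mitosis genes on the horizontal axes, 1 symbol per library. The end-joining points lie in a flat line between 3.91 and 4.08, and the other groups order the control libraries 5, 6 and 7 as the mitosis list does.

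Other genes of the same pathways, from 4 lists (76 genes tested), were also not called by edgeR (0 of 76), as for 0% of all genes. DESeq2 called 2 of them, against 10.6% of the genes it gave an adjusted p. At an unadjusted p under 0.05 there were 5, all lower in treated tumors, against 14.6% of all genes in that direction. Their median log2 fold change was 0.10. The other Fanconi genes had a median of 0.14 over 21 genes, the other recombination genes 0.28 over 21, the other end-joining genes -0.04 over 16 and the other checkpoint genes -0.03 over 18. Without control 5, 26 of the 76 were called higher and 10 lower, against 22.2% and 25.5% of all genes (edgeR).

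Most of the genes with the lowest p-values in these lists had a negative fold change. Rnf169, a reader of RNF168-marked chromatin, was at 47.3, 59.2 and 54.8 CPM in controls and 32.0, 36.5 and 31.1 CPM in treated tumors, without overlap, a log2 fold change of -0.70 (SE 0.19, adjusted p = 0.247, edgeR). Shld2, a shieldin subunit that protects ends from resection, was at 7.85, 30.7 and 52.8 CPM in controls and 5.73, 7.10 and 6.66 CPM in treated tumors. Control 5 was close to the treated tumors, and the log2 fold change was -2.22 (SE 0.66). Dna2, a resection nuclease, was at 12.5, 23.6 and 25.4 CPM in controls and 9.24, 6.96 and 11.7 CPM in treated tumors (log2 fold change -1.14, SE 0.36). Rev3l, the catalytic subunit of the translesion polymerase zeta, was at 19.4, 37.2 and 33.4 CPM in controls and 14.7, 21.3 and 11.0 CPM in treated tumors, overlapping through control 5 (log2 fold change -0.93, SE 0.36). Lig3, the ligase of alternative end joining, had a log2 fold change of -0.95 (SE 0.37), and Fan1, a crosslink nuclease, -0.80 (SE 0.35). Rpa3 and Tipin, used at replication forks, had log2 fold changes of 0.60 and 0.70.

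Genes that p53 induces after damage were listed as a further comparison. Of 16 genes, 0 were called by edgeR, as for 0% of all genes, and 1 by DESeq2. A log2 fold change above 0 was found for 9 (median 0.14). At an unadjusted p under 0.05 (edgeR) there were 3, all lower in treated tumors, against 14.6% of all genes in that direction. Without control 5, 8 were called higher and 2 lower, against 22.2% and 25.5% of all genes (edgeR), and the median was 0.72. The 2 genes with the lowest p-values were both lower. Trp53inp1, a p53 target that promotes cell death and autophagy, was at 146, 114 and 108 CPM in controls and 71.3, 69.4 and 58.7 CPM in treated tumors, a log2 fold change of -0.88 (SE 0.22). Bbc3, which encodes the pro-apoptotic protein PUMA, was at 10.0, 9.41 and 6.24 CPM in controls and 4.15, 4.56 and 5.05 CPM in treated tumors, a log2 fold change of -0.90 (SE 0.30). Neither gene had overlapping groups, and both had an adjusted p of 0.247 (edgeR). Among the S phase genes Pcna (log2 fold change 0.94), and among the mitosis genes Birc5 (1.16) and Cdc20 (1.12), were among those with the lowest unadjusted p-values.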

How the data were processed

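RNA was measured in 6 tumors. The raw counts per gene were deposited by the authors without normalization, beside a table of scaled counts (unit signal), made by the authors with 1 size factor per library, which served here only to pair gene symbols with identifiers. The study's methods name TopHat and HTSeq, whereas the submitters' processing notes name Trimmomatic 0.38, HISAT2 2.1.0 and featureCounts 2.0.0, so the counting tool is uncertain. The build, annotation release and use of strand are not given in the sources used here. Positions and exons came from GENCODE M21 (GRCm38), which holds all 55536 gene identifiers. Without knowing the use of strand, reads of overlapping genes cannot be told apart.

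Analysis used edgeR 4.0.16 in R 4.3.3 (filterByExpr, TMM, quasi-likelihood test, no covariates, Benjamini-Hochberg adjustment, threshold 0.05), limma 3.58.1 and DESeq2 1.42.0, with Python 3.11.15 and matplotlib 3.10.9 for plots. Log2 CPM used a prior count of 2. The 95% intervals of fold changes came from the quasi-likelihood test. Library totals were 15529940 to 18401178 counts, and TMM factors 0.569 to 1.241. The median gene-wise dispersion was 0.157 and the common dispersion 0.277. Standard errors with edgeR were taken from the quasi-likelihood test. The steps were tested on simulated counts. Members, roles and comparison lists were chosen with earlier results of these data known. Named genes were, in each role, the 2 with the lowest p, those with the largest and smallest fold change, Parp1, and members without overlap. Other members are given by their values, and in the other lists the 2 genes with the lowest p. Hrob and Shld3 were not matched. Alternatives were other tests, scalings and filters, a hepatocyte covariate, and leaving out each library. Some genes that the rule selects are not reported here.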

Additional observations from a re-analysis of the deposited data

How the results depend on the processing

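The count of 0 called members stayed at 0 except in limma voom with sample quality weights and in the fit without control 5. Voom gave control 5 a weight of 0.0844 and called 24 members, against 60.2% of all genes. The fit without control 5 called 17, against 47.7% of all genes. Leaving out 1 library in turn gave 0 to 17 called members, 0 to 21 with an unadjusted p under 0.05, 4 to 28 without overlap, and medians of 0.08 to 0.45. Members with an unadjusted p under 0.05 (1 in the report) numbered 0 with the edgeR exact test, library totals, upper quartile, no filter and the hepatocyte covariate, 3 with housekeeping genes and 27 with voom. Members without overlap (3 in the report) numbered 5 with DESeq2 size factors and 6 with library totals, upper quartile or housekeeping genes. With the hepatocyte covariate, 7.01% of all genes had an unadjusted p under 0.05 (edgeR). Leaving out control 5, the groups of 72% of all genes did not overlap. Shares of all genes under the other settings are not given here, so these counts are not results about the members. The median of all genes moved to 0.51 with totals, 0.19 with upper quartile and -0.25 with housekeeping genes, and that of the members to 0.65, 0.41 and -0.0269. Of 39 members, 17 kept their direction in all 16 settings. The other 22 changed sign at least once, and the cause was not tested. With voom the values were Atr 0.15, Rad52 0.0329, Xrcc5 0.0575 and Xrcc6 -0.0231. With library totals they were Atm 0.12, Atr 0.39, Nbn 0.50, Rad51b 0.13, Rad52 0.43, Fancm 0.12, Xrcc5 0.43, Dclre1c 0.14 and Parp1 0.37. Upper quartile gave Atr 0.12, Nbn 0.0879, Rad52 0.13 and Xrcc5 0.10. Housekeeping genes gave Mdc1 -0.0145, Trp53bp1 -0.0362, Rnf168 -0.0949, Brca2 -0.28, Xrcc3 -0.23, Fanca -0.0269, Xrcc4 -0.0230, Xrcc6 -0.15, Lig4 -0.0706 and Prkdc -0.19. No filter gave Atr 0.0222 and Rad52 0.0324. The hepatocyte covariate gave Mdc1 -0.0709, Trp53bp1 -0.16, Nbn 0.16, Brca1 -0.13, Brca2 -0.13, Xrcc3 -0.13, Fanca -0.21, Fanci -0.0548, Prkdc -0.27 and Nhej1 0.13. Leaving out 1 library gave Atm -0.50 to 0.10, Atr -0.15 to 0.21, Trp53bp1 -0.0299 to 0.90, Nbn -0.24 to 0.0766, Brca1 -0.0592 to 1.80, Brca2 -0.14 to 0.16, Xrcc3 -0.21 to 0.22, Rad52 -0.13 to 0.12, Fanca -0.10 to 1.23, Fanci -0.11 to 2.24, Xrcc5 -0.15 to 0.0168 and Prkdc -0.15 to 0.62. Exo1, Rad54l and Fanci rested on 2 counts in control 7. No paired analysis was possible because the groups share only the number 5.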
